A study of Rattus norvegicus with 6 samples.

Results

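The STAC adaptors and the RGK GTPases are small families of intracellular proteins that act on voltage-gated calcium channels, and their transcripts were followed here in rat dorsal root ganglia (DRG) after sciatic nerve injury. The 7 members are Stac, Stac2 and Stac3, and Rem1, Rem2, Rrad and Gem, and they were 7 of the 43350 gene rows in the deposited table. Each was taken by its symbol, a protein-coding row first and then the row with the most counts. The families were chosen with the CCI and sham counts of these libraries in view, because Stac2 and Rem2 differed in opposite directions, so the differences of the members between the groups, and the count of members past the limits of that contrast, are given as a description and support nothing.

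The study sequenced total RNA of lumbar 4-6 DRG from male Sprague-Dawley rats 11 days after surgery, with 3 rats in the CCI group and 3 in the sham group. CCI, chronic constriction injury, is a model of neuropathic pain in which the left sciatic nerve is tied loosely with several ligatures. Sham rats had the same nerve exposed and left untied, per the study's methods, while their label lists no treatment. The ganglia were from the operated side. Each library was made from 1 rat according to the methods, whereas the labels speak of a pooled sample, and no other treatment is listed. The age of the rats at surgery is not in the labels. Ganglia of the sciatic nerve also contain neurons whose axons do not run in that nerve, and the tissue was not sorted, so a level is a mean over injured and uninjured neurons, glia and other cells. In such bulk samples, fewer cells of a type and less RNA per cell cannot be told apart.

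As background, high-voltage-activated calcium channels are built from a pore-forming alpha1 subunit, a cytoplasmic beta subunit and an alpha2delta subunit, and in sensory neurons they admit the calcium that drives transmitter release. STAC proteins carry an SH3 domain and a cysteine-rich domain, bind L-type channels and slow their calcium-dependent inactivation. Stac3 is the skeletal muscle form, required for coupling the surface membrane channel to calcium release. RGK proteins (Rad, Rem, Rem2 and Gem/Kir) are Ras-like GTPases that bind the beta subunit and inhibit high-voltage-activated channels. In the gene annotation of the deposited table, all 3 STAC genes carried the term positive regulation of voltage-gated calcium channel activity. Rem1, Rem2 and Rrad carried the opposite term for high voltage-gated channels, and all 4 RGK genes carried GTPase activity.

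The libraries held between 75423546 and 87615743 counts, and 3 counts corresponded to 0.0342 to 0.0394 CPM, the count per 1e6 counts of a library after scaling by TMM, the trimmed mean of M-values. Rows were tested where the mean FPKM (fragment counts scaled to transcript length and library depth) over the 6 libraries was at least 0.5, which kept 26663 rows. Stac, Stac2, Rem1 and Rem2 were among them, and Stac3, Rrad and Gem were under the filter. The sham 1 library stood apart from the rest by skeletal muscle transcripts: 11 muscle markers on rows of their own summed to 473 CPM in it and to 15.3 to 63.1 CPM in the other 5. The neuronal markers were present in every library, with 8 sensory neuron genes summing to between 5743 and 7092 CPM. The 10 nerve injury genes listed, among them Atf3, were all higher in the CCI group (median log2 fold change 2.72). Within that group, 9 of them were highest in CCI 1. The list was drawn up with earlier results of these data known, so their direction is a description and no test. Vip and Sprr1a on it passed the filter only through the CCI group, with a mean FPKM of 0.015 and 0.050 in the sham group.

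The contrast that chose the members also fixed how many of them lie past its limits, so the following counts restate the choice and are no test of the members. A row was called where the unadjusted p of edgeR's quasi-likelihood test was under 0.05 and the log2 fold change was at least 0.58 in size. Of the 4 members tested, 1 was called higher (Stac2), against 2.57% of all rows tested, and 1 was called lower (Rem2), against 1.26%. At a Benjamini-Hochberg adjusted p under 0.05, 1 member was called (Stac2), against 0.0938% of rows. In 1 tested member every CCI library was above every sham library, which held for 8.63% of rows, and in 1 every CCI library was below, which held for 8.70%. With the members picked on these differences, nothing is read from these shares. With 3 samples against 3, an exact two-sided permutation test of a single gene cannot give a p under 0.1.

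**Figure D1:**
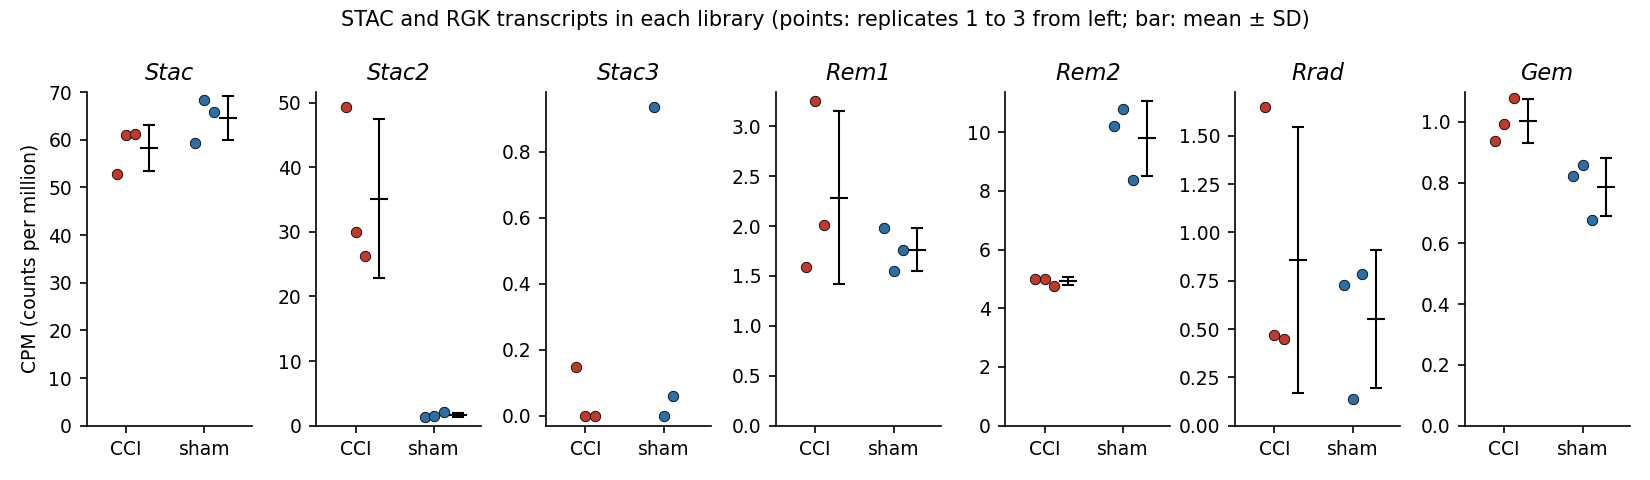
CPM of each STAC and RGK member in the 6 libraries, with 1 panel per gene on its own linear axis; points are the libraries, replicates 1 to 3 from the left, and the bar is the mean ± SD of the 3 libraries of a group (no bar for Stac3). The groups were apart for Stac2, Rem2 and Gem and overlapped for Stac, Rem1, Rrad and Stac3. Of all rows tested, 8.63% had every CCI library above every sham library and 8.70% had every one below.

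Among the STAC adaptors, Stac2 was low in the sham group and many times higher in the CCI group. Its row lies on chromosome 10 at 85988367 to 86004209, on the minus strand, in the coordinates of the deposited table. The CCI libraries 1 to 3 gave 3997, 2417 and 1993 counts, which is 49.3, 30.0 and 26.2 CPM. The sham libraries gave 120, 121 and 172 counts, which is 1.37, 1.53 and 2.08 CPM. Every CCI library was thus far above every sham library, and the CCI libraries differed more among themselves than the sham libraries did in CPM. The group means were 35.2 ± 12.4 and 1.66 ± 0.376 CPM (SD, n = 3 each), a ratio of 21.2, and the fitted log2 fold change was 4.40 (SE 0.31). The coefficient of variation within the CCI group was 35.2%, where counting alone gives 1.89%, so the spread between these rats and not the depth limits the precision. Stac2 passed the filter only through the CCI group, since its mean FPKM was 0.401 in the sham group and 8.62 in the CCI group.

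In the order of protein-coding rows by FPKM, 24.4% of 18508 rows lay below Stac2 in the sham group and 73.9% in the CCI group. The highest Stac2 level was in CCI 1, the library that also led most of the nerve injury genes. Macrophage markers summed to 166, 149 and 118 CPM in CCI 1, 2 and 3 and to 91.5, 88.1 and 115 CPM in sham 1, 2 and 3. By edgeR 4 of the 10 were called higher, against 2.57% of all rows tested. Their log2 fold changes ran from -0.0033 to 1.13 (median 0.51), so not all of these markers moved. The part of these levels in the Stac2 difference was not tested.

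Stac, the founding member of the adaptor family, was the most abundant of the 7 genes in both groups by mean FPKM. Its row lies on chromosome 8 at 119819240 to 119941820, on the minus strand. The CCI libraries had 52.8, 61.1 and 61.2 CPM and the sham libraries 59.4, 68.4 and 65.9 CPM. The groups overlapped, with means of 58.3 ± 4.83 and 64.6 ± 4.63 CPM (SD, n = 3 each) and a log2 fold change of -0.15 (SE 0.09), and the lowest value was in CCI 1. Stac thus gave no separation of the groups.

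The symbol Stac also stands on 3 assembled rows of the opposite strand that lie inside or across the Stac row. Together they had 13.1, 9.98 and 13.1 CPM in CCI 1, 2 and 3 and 11.5, 9.72 and 12.9 CPM in sham 1, 2 and 3, so their groups overlapped too. An unnamed row inside Stac on its own strand averaged 15.7 CPM after CCI and 13.0 CPM after sham surgery. With the 4 rows named Stac summed, the log2 ratio of the group means was -0.11. The library kit marks strand, but whether the counting used it is not given in the sources used here, so reads of Stac and of these rows may not be fully separated.

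The Stac and Rem2 promoters are shown because these were the most abundant member of each family in the sham group and differ in base composition. They run from 250 bases before to 50 bases after the gene start, 5′ to 3′ on the gene's strand, and were taken from RefSeq on build GRCr8, where Stac is at chr8:120531271-120531570 (minus strand) and Rem2 at chr15:31903722-31904021 (plus strand). Capitals mark the Sp1 GC box, GGGCGG or its complement CCGCCC.
Stac: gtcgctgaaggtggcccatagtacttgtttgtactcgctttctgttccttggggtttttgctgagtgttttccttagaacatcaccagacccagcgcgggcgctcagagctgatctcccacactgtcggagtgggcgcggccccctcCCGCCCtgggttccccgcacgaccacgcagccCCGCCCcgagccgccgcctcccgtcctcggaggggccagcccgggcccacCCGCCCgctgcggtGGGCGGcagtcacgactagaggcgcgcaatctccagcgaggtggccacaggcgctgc
Rem2: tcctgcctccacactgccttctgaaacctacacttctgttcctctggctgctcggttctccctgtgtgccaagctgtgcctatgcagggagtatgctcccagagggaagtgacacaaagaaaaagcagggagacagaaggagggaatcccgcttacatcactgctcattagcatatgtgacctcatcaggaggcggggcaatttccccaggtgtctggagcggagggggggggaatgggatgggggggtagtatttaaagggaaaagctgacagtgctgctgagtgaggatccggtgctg

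RefSeq promoters matched 4 of the 7 members, Stac, Stac3, Rem1 and Rem2. Searched on both strands, the GC box was in the Stac promoter at 4 positions and in the Rem1 promoter at 4, and 33.1% of all 33469 promoters of this length held it. The cAMP response element TGACGTCA, held by 1.83% of all promoters, was in none of the 4, nor was the AP-1 element TGANTCA, held by 7.33%, or the TATA box TATAAA, held by 14.2%. These motifs do not overlap in the member promoters, since only the GC box was found. The Stac and Rem1 windows had 68.0% and 68.3% G and C, the Rem2 and Stac3 windows 55.3% and 54.0%, and the median promoter 51.7%. A match in these windows is a run of letters, not a measured binding site.

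Stac3 was low or at 0 in 5 libraries. CCI 1 had 12 counts and the other two CCI libraries 0, while sham 1 had 82, sham 2 had 0 and sham 3 had 5. Most of its counts were thus in sham 1. At 0 counts the limit is 3 counts, and the 0.934 CPM of sham 1 was the highest value. No fold is given for this gene. The genes of excitation-contraction coupling listed beside it, among them the muscle ryanodine receptor Ryr1 and the L-type pore Cacna1s, showed the same library apart: 9 of the 10 listed were found, they summed to 45.3 CPM in sham 1 and to 5.08 to 7.86 CPM in the other 5 libraries, and 6 of the 9 were highest in sham 1. Ryr1 alone had 22.8 CPM in sham 1 and 1.53 to 2.42 CPM elsewhere. The Stac3 difference between the groups was therefore that of a single library.

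**Figure D2:**
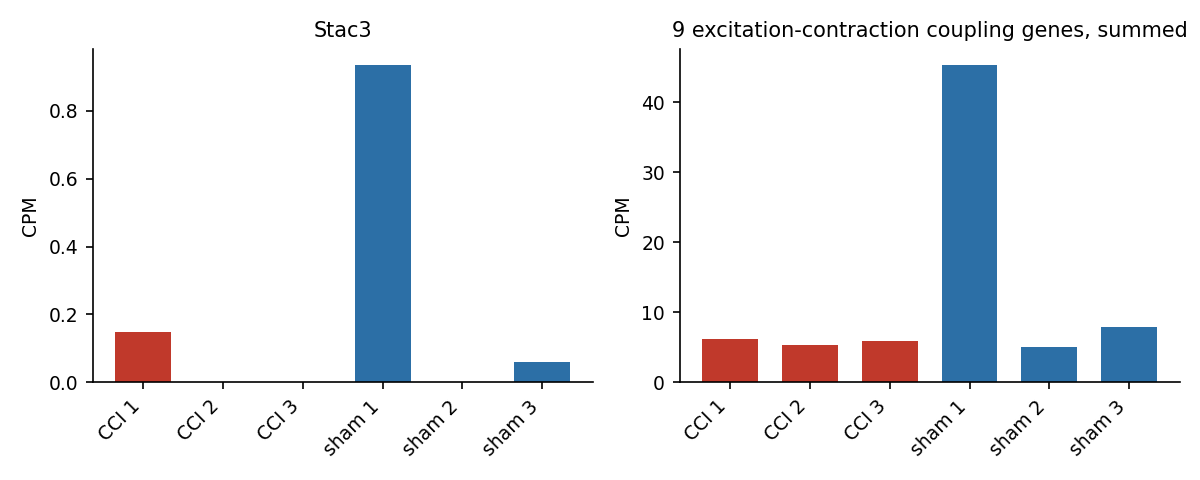
CPM of Stac3 (left) and the summed CPM of 9 excitation-contraction coupling genes (right) in each library on linear axes, CCI in red and sham in blue. Sham 1 stands above the other 5 libraries in both panels, at 0.934 CPM and 45.3 CPM.

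Among the RGK GTPases, Rem2, which is known from neurons, was the member lower in the CCI group. Its row lies on chromosome 15 at 33121273 to 33125752, on the plus strand. The CCI libraries gave 405, 403 and 362 counts, which is 4.99, 5.00 and 4.76 CPM, and the sham libraries gave 897, 854 and 690 counts, which is 10.2, 10.8 and 8.36 CPM. The 3 CCI libraries lay close together and all below the lowest sham library. Means were 4.92 ± 0.137 and 9.78 ± 1.27 CPM (SD, n = 3 each), the sham mean was 1.99 times the CCI mean, and the log2 fold change was -0.99 (SE 0.13). The CCI coefficient of variation, 2.79%, was smaller than the 5.06% that counting alone gives, and the sham one, 13.0%, was larger than its 3.51%. Of the protein-coding rows, 59.7% lay below Rem2 in the sham group and 43.8% in the CCI group.

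The summed level of 6 large sensory neuron markers also separated the groups. These genes summed to 3776, 4050 and 3727 CPM in CCI 1, 2 and 3 and to 4780, 4970 and 5282 CPM in sham 1, 2 and 3, with Nefh, a neurofilament subunit (log2 fold change -0.54), holding most of the sum. By edgeR 1 of the 6 was called lower, the calcium-binding protein Pvalb (-0.69), against 1.26% of all rows tested. At an unadjusted p under 0.05 by edgeR, 3 were lower whatever their size. In 4 of the 6 every CCI library was below every sham library, which held for 8.70% of all rows tested. The groups overlapped for Spp1 (0.25) and Runx3 (-0.11). The 8 sensory neuron markers listed summed to 6794 to 7092 CPM in the CCI group and 5743 to 6814 CPM in the sham group. By edgeR 0 of these 8 were called. At an unadjusted p under 0.05 whatever the size, 2 of these 8 were higher and 1 was lower, so the sum holds markers of both directions. Nociceptor markers summed to 2173 to 2450 CPM in the CCI group and 2294 to 2656 CPM in the sham group, which overlapped; 0 of 8 were called by edgeR, and at an unadjusted p under 0.05 whatever the size 1 was higher and 4 were lower. The share of all rows at an unadjusted p under 0.05 whatever the size was not counted, so no excess in these lists is read from those counts. The part of neuron makeup in the Rem2 difference was not tested.

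Rem1, an RGK member described first in heart and muscle, had 1.59, 3.25 and 2.01 CPM in CCI 1, 2 and 3 and 1.98, 1.55 and 1.76 CPM in sham 1, 2 and 3. The groups overlapped, and CCI 2 was the highest library. The log2 fold change was 0.37 (SE 0.30), and it was 0.03 without CCI 2 and 0.58 without CCI 1. Rem1 lies on chromosome 3 at 148108539 to 148116991.

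Rrad, which encodes Rad, had 134, 38 and 34 counts in the CCI libraries and 64, 11 and 65 counts in the sham libraries. The groups overlapped widely, and CCI 1 held most of the CCI counts, so the log2 fold change of 0.63 (SE 0.77) became -0.27 without that library. This value and that of Gem come from a fit over all rows with a count, because both genes were under the FPKM filter. Rrad lies on chromosome 19 at 561727 to 564930.

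Gem, an RGK GTPase also known as Kir, had 76, 80 and 82 counts in the CCI libraries and 72, 68 and 56 in the sham libraries. In CPM these were 0.937, 0.993 and 1.08 against 0.820, 0.858 and 0.678, so the groups did not overlap, with means of 1.0 ± 0.0713 and 0.786 ± 0.0948 (SD, n = 3 each). Among the rows tested, which leave out Gem, 8.63% had every CCI library above every sham library, so nothing is read from this separation. The log2 fold change was 0.35 (SE 0.25). At these counts, counting alone gives a coefficient of variation of 11.2% in the CCI group and 12.4% in the sham group, above the 7.11% and 12.1% seen. Gem was the member nearest the filter from below, with a mean FPKM of 0.497. It lies on chromosome 5 at 25349928 to 25353661.

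Per unit length, the order of the members differed between the groups. In the sham group mean FPKM was 14.2 for Stac, 4.89 for Rem2 and 0.921 for Rem1, with ranges that did not touch, and 0.433 for Gem, 0.401 for Stac2, 0.326 for Rrad and 0.193 for Stac3, whose neighbours overlapped. In the CCI group it was 13.0 for Stac and 8.62 for Stac2, whose ranges overlapped, then 2.48 for Rem2, 1.21 for Rem1, 0.560 for Gem, 0.509 for Rrad and 0.0284 for Stac3, with Gem and Rrad overlapping. In CCI 1 the Stac2 FPKM of 12.04 was above the Stac FPKM of 11.7. By mean FPKM Stac2 was thus next after Stac in the CCI group, and below Gem in the sham group.

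Summed over the family, the STAC adaptors had 23.8, 21.0 and 20.1 FPKM in CCI 1, 2 and 3 and 14.1, 15.4 and 15.0 FPKM in sham 1, 2 and 3. Stac2 made up 50.5%, 35.1% and 32.1% of that sum in the CCI libraries and 2.36%, 2.40% and 3.36% in the sham libraries. The RGK sum moved the other way, at 4.84, 5.08 and 4.35 FPKM in the CCI libraries and 7.09, 6.73 and 5.90 FPKM in the sham libraries. Both sums kept the groups apart, but both hold the genes the choice rested on. Rem2 made up 49.8% to 55.5% of the RGK sum in the CCI group and 70.4% to 79.8% in the sham group, and there were 4.13 to 4.92 FPKM of STAC per FPKM of RGK in the CCI group against 1.99 to 2.54 in the sham group.

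**Figure D3:**
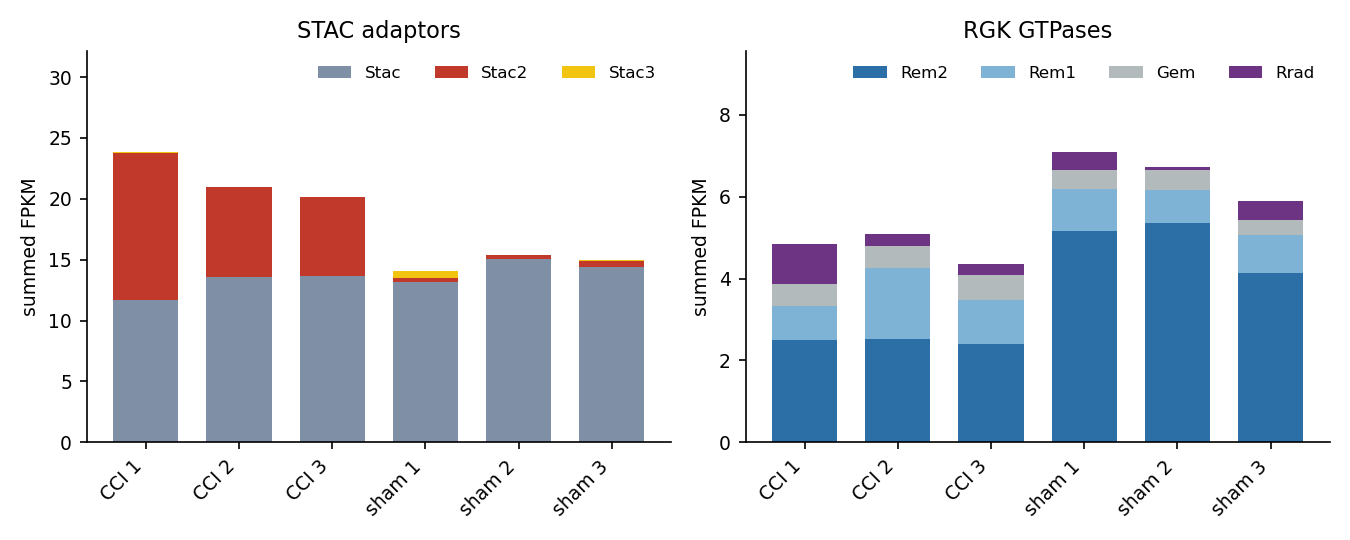
Summed FPKM of the 3 STAC adaptors (left) and the 4 RGK GTPases (right) in each library, stacked by gene on linear axes. Stac changes little from bar to bar while the Stac2 block is large in the CCI libraries alone, and the Rem2 block is smaller in the CCI libraries than in the sham libraries.

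The channel subunits on which these regulators act were looked up next, from lists that the members do not belong to. Of the pore-forming alpha1 genes, 7 of the 10 listed were tested and 0 passed in either direction by edgeR, 1 having an unadjusted p under 0.05. Their median log2 fold change was -0.05, beside 0.01 over all rows tested. The most abundant were Cacna1b, the N-type pore (0.30, SE 0.08, adjusted p = 0.261, edgeR), and Cacna1c, an L-type pore (0.05, SE 0.06). Their summed FPKM was 38.7 to 39.8 in the CCI group and 35.9 to 41.4 in the sham group, so the groups overlapped.

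Of the 4 beta subunit genes, the binding partners of the RGK proteins, 0 passed the limits and 1 had an unadjusted p under 0.05 by edgeR; their median log2 fold change was 0.18. Cacnb3 and Cacnb4, the most abundant, had 0.01 (SE 0.07) and -0.05 (SE 0.07). The summed beta FPKM of 56.0, 52.8 and 51.8 in CCI 1, 2 and 3 and 47.2, 52.0 and 51.8 in sham 1, 2 and 3 overlapped. Per 100 FPKM of beta subunit there were 8.65, 9.61 and 8.40 FPKM of RGK in the CCI libraries and 15.0, 12.9 and 11.4 in the sham libraries, a separation that rests on Rem2. Cacnb1 had 64.6, 53.4 and 52.9 CPM in the CCI libraries and 40.6, 42.4 and 44.2 CPM in the sham libraries, with a log2 fold change of 0.42 (SE 0.09, adjusted p = 0.199, edgeR), under the limit in size.

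Of the alpha2delta genes, 3 of 4 were tested and 1 was called higher. Cacna2d1, the subunit that binds gabapentin, had 779, 525 and 463 CPM in CCI 1, 2 and 3 and 260, 259 and 256 CPM in sham 1, 2 and 3. All CCI libraries were above all sham libraries, and CCI 1 was again the highest. The log2 fold change was 1.19 (SE 0.19) at an unadjusted p of 0.000523 and an adjusted p of 0.109 (edgeR), so it passed the unadjusted limits and not the adjusted one. Cacna2d3 had -0.35 (SE 0.05), an adjusted p of 0.103, and a size under the limit.

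**Figure D4:**
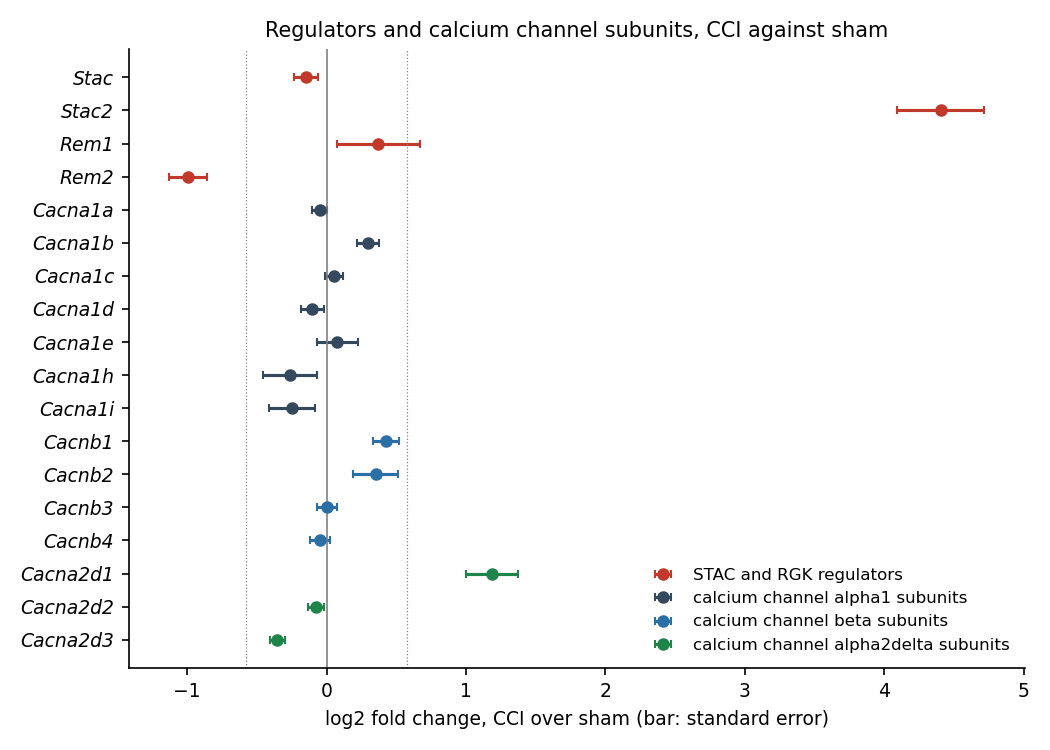
Fitted log2 fold change of CCI over sham (x axis, bars are standard errors, n = 3 per group) for the 4 regulators tested and the 14 calcium channel subunit genes tested; the dotted lines mark the limit of 0.58 in size. Stac2 at 4.40 and Cacna2d1 at 1.19 lie right of the limit, Rem2 at -0.99 lies left of it, and the alpha1 and beta genes lie between the lines.

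The remaining partner lists were counted in the same way. Calmodulins and 14-3-3 proteins, which bind the channels and the RGK proteins, had 9 genes tested and 0 called (median log2 fold change -0.04), with Calm2 at -0.04. Calcium-dependent kinases and calcineurin had 11 tested and 0 called, with the calcineurin subunits Ppp3ca at -0.06 and Ppp3r1 at 0.01, the latter on a row joined with another gene. In excitation-contraction coupling only Casq1 passed the filter, at -1.36 with an adjusted p of 0.626, and its highest value was in sham 1. Over the 7 partner lists, 40 of 53 genes were tested and 1 was called higher and 0 lower, a share near the 2.57% and 1.26% of all rows tested. There were 5 higher and 1 lower at an unadjusted p under 0.05 whatever their size and 0 at an adjusted p under 0.05 by edgeR, and nothing particular to these lists is read from the counts.

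The genes next to the members on the chromosome were compared as well. Within 50 kb of the members, between 0 and 6 neighbouring rows per member were tested, and 0 were called in either direction at the unadjusted limits. Stac2 and Cacnb1 are neighbours on the same strand, 13716 bases apart, and the Cacnb1 log2 fold change of 0.42 stood beside 4.40 for Stac2. The other tested neighbours of Stac2 were a row holding Rpl19, at 0.19, and Fbxl20, at -0.03. In Cacnb1 and the Rpl19 row every CCI library was above every sham library, which held for 8.63% of all rows tested. In Fbxl20 the groups overlapped. Around Rem2, 6 rows were tested and the groups overlapped in each. Lrp10, the nearest of them at 6383 bases, was at 0.01, Prmt5 at -0.08, Mrpl52 at -0.13 and Mmp14 at -0.16. An unnamed row on the same strand, 16935 bases away, was at -0.54 (SE 0.50), with its lowest level in CCI 1, and another was at 4.49 (SE 2.06), with 90 counts in CCI 2 and 0 to 6 in the other 5 libraries.

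By pattern over the 6 libraries, the rows most like Stac2 were those of genes with a large CCI difference. Likeness was the root mean square difference of log2 CPM, each row centred on its own mean, among 17258 rows with a symbol and a mean CPM of at least 1. Gal, the neuropeptide galanin, was nearest at 0.21, then Reg3b, a secreted lectin, at 0.25 and Cckbr, a cholecystokinin receptor, at 0.30. AABR07044837 followed at 0.37 and Csrp3, a LIM domain protein of muscle, at 0.42, and the log2 fold changes of the 5 were between 3.85 and 4.56. Gal also stands on the list of nerve injury genes, which was drawn up with earlier results of these data known.

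The 4 rows given here as most like Rem2 were lower in the CCI group, with log2 fold changes between -1.04 and -0.83 beside -0.99 for Rem2. They were Spc25, a kinetochore protein, at 0.11, Piwil2, an Argonaute-family protein, at 0.11, AABR07073039 at 0.11 and Sptssb, a subunit of serine palmitoyltransferase, at 0.13. These measures rank rows over 6 libraries in 2 groups that were themselves the basis for choosing Stac2 and Rem2, and no test was made.

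**Figure D5:**
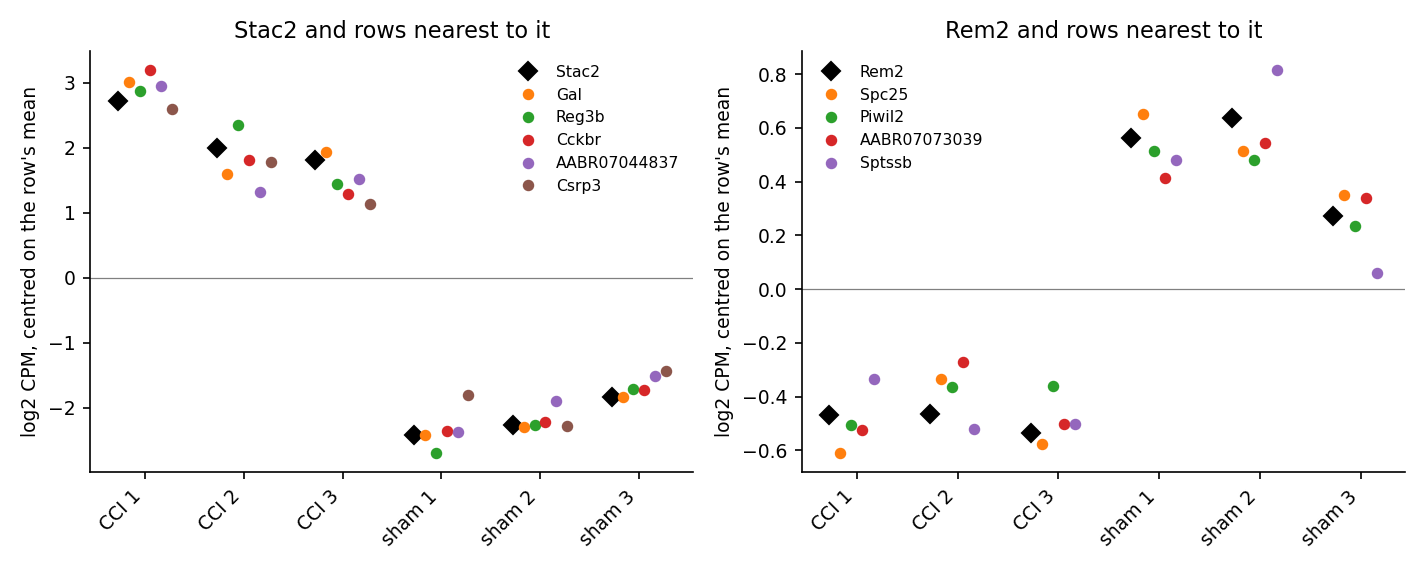
Log2 CPM of Stac2 (left) with its 5 nearest rows and of Rem2 (right) with 4 of its 5 nearest rows in each library, each row centred on its mean over the 6 libraries; diamonds are the regulator and circles the other rows. The Stac2 set lies above 1 in every CCI library and below -1 in every sham library, and the Rem2 set lies below 0 in the CCI libraries and above 0 in the sham libraries.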

How the data were processed

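RNA of 6 DRG libraries, 3 CCI and 3 sham, was read from the gene table of the whole series. The authors depleted ribosomal RNA, built libraries with a dUTP kit, and used HISAT2 2.0 and StringTie 1.3.0 (submitters' notes). Per the methods, expression was estimated with StringTie and edgeR; the step that made the counts and its strand setting are not given in the sources used here. The limits on p and fold change follow the study. The deposited counts per gene row are raw. The deposited FPKM values were scaled by the authors to length and depth and served for the filter and for levels between genes. Rows without a symbol (6849) held 5.37% to 5.72% of the counts, stayed in the fit and were left out of the nearest patterns.

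Counts were tested with edgeR 4.0.16 (R 4.3.3; TMM factors, quasi-likelihood F test, Benjamini-Hochberg adjustment over the 26663 rows whose FPKM averaged 0.5 or more). CPM used TMM-scaled totals, and the log2 CPM of the patterns a prior count of 2. Each SE was derived from that test, as the size of the log2 fold change divided by the square root of its F statistic. The fit was tested on simulated counts. Each p-value weighs a group difference against the spread between the 3 libraries of each group, estimated with help from all rows tested. Named genes were the 7 members, the called genes of each partner list or, with none called, its 2 most abundant by FPKM, the marker genes that show a level moving with a member, and the 5 nearest rows of Stac2 and Rem2; Cacnb1, Cacna2d3, Cacna1s, Camk2d, Sfn, Trdn and the neighbours were added after their values were seen. Some items that the rule or the lists hold are not reported here, though counts over the 7 partner lists include them. The members and lists were chosen with earlier results of these data known. Alternatives were median-ratio size factors, other filters, DESeq2 1.42.0, limma 3.58.1 on log2(FPKM + 0.1) and log2(FPKM + 1), a replicate block, rows with a symbol alone, each library left out, and the Stac rows summed.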

Additional observations from a re-analysis of the deposited data

How the results depend on the processing

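The Stac2 and Rem2 differences kept their direction under every alternative run. With limma on log2(FPKM + 1) the log2 fold changes were 2.74 for Stac2 and -0.75 for Rem2, and a larger pseudocount shrinks the change of low rows by construction; with 1 library left out they ran from 4.08 to 4.60 and from -1.09 to -0.92. The values of Stac ran from -0.20 to -0.08, of Rem1 from 0.03 to 0.58, of Gem from 0.26 to 0.42 and of Rrad from -0.27 to 0.97 with 1 library left out.

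Counts over all rows moved more. Rows called higher (686) came to 410 with limma on log2(FPKM + 1) and 562 to 767 with 1 library left out; rows called lower (336) came to 161, to 214 among rows with a symbol, which are fewer rows, and to 312 to 421. Rows at an adjusted p under 0.05 (25) came to 747 with DESeq2, and to between 6 and 61 with 1 library left out: 61 without CCI 1, 6 without CCI 2, 38 without CCI 3 and 8 without sham 1. The cause was not tested. Among the partner lists, the genes called higher (1) came to 1 to 2 with 1 library left out, the second being Camk2d without CCI 2 (log2 fold change 0.61, against 0.51) or Sfn without sham 3. Those called lower (0) came to 2 with no filter (Cacna1s and Trdn), to 1 with DESeq2 (Casq1) and to 0 to 1 with 1 library left out (Casq1 without sham 2).

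With the replicate block, 0 rows passed an adjusted p under 0.05 by edgeR, against 617 higher and 318 lower at the unadjusted limits, and Stac2 and Rem2 had 4.37 and -0.98. The replicate numbers do not pair the rats: deviations of same-numbered libraries correlated at -0.0106, -0.0218 and -0.0547. Counts near those of Stac3, Rrad and Gem limit what depth can show. Of 241 values under other settings, 224 stayed on their side of the limits or within the spread between replicates. Fold changes under other settings were followed for members and for some channel subunit and partner genes. Of these, Stac2, Rem2 and Cacna2d1 were past the unadjusted limits and kept their sign. The values of Rrad, Cacnb3 and Cacnb4, which were not past them, changed sign with 1 library left out. The marker genes and the nearest rows were not followed in this way.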
